A study of Homo sapiens and Mus musculus with 18 samples.

Results

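The ERBB family couples growth factors in the extracellular fluid to division and survival of epithelial cells. Expression of 9 of its genes was described in 2 human lines from pancreatic tumours, each with more or less keratin 17 (K17, gene KRT17). The genes are the receptors EGFR, ERBB2, ERBB3 and ERBB4 and the ligands AREG, EREG, TGFA, HBEGF and NRG1, 9 of 34505 gene identifiers in the human count tables. They were taken by name because they belong to this family, with earlier results of the same data known. Their levels and fold changes are therefore given as a description. A gene is said to be called where it passed the fit over all genes of its line, and for these 9 genes a call is a label and not independent evidence.

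K17 builds intermediate filaments in stratified epithelia and marks pancreatic tumours of the basal-like kind. RNA was sequenced from L3.6 cells, a human pancreatic adenosquamous carcinoma line, in which KRT17 was knocked out with CRISPR-Cas9 (3 libraries) or was wild type (3 libraries). PANC-1, a human pancreatic ductal adenocarcinoma line, carried K17 for over-expression (3 libraries) or an empty vector (3 libraries). All cells grew in the same serum-containing medium, and the labels do not say which promoter drove K17 or whether each altered line was 1 clone or a pool. A mouse line of the same study was not analysed here, because the gene tables used here name none of its identifiers.

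The 4 receptors are tyrosine kinases that signal as pairs. EGFR binds AREG, EREG, TGFA and HBEGF, ERBB3 and ERBB4 bind NRG1, and ERBB4 also binds EREG and HBEGF. ERBB2 has no known ligand of its own and is the preferred partner of the others, whereas the kinase of ERBB3 is weak and needs a partner. All these ligands are made as membrane precursors, most of which are cut free by metalloproteases of the ADAM family.

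KRT17 itself followed the labels. It had 202, 204 and 175 counts in L3.6 knockout libraries, against 1654, 1112 and 1420 in wild type. PANC-1 cells with K17 had 8597, 9884 and 9228 counts, against 2, 0 and 0 with the empty vector. Library totals ran from 9485257 to 15476629 counts in L3.6 and from 59671178 to 70789559 in PANC-1, so a gene with few reads was measured more precisely in PANC-1. PANC-1 empty vector replicate 2 stood apart, with 18.8% of its counts from mitochondrial genes against 9.88% to 10.8% in the other 5 PANC-1 libraries, and PANC-1 results are given with and without it. L3.6 wild type replicate 1 lay between the knockout libraries and the other wild type libraries on the first principal component, at 7.4 against −40.6 to −18.6 and 40.1 to 41.3. The epithelial markers EPCAM, KRT8 and KRT19 were present in all 12 libraries, but CDH1 was at only 1.64 ± 1.36 CPM (counts scaled to the size of the library) in L3.6 knockout and 1.52 ± 0.747 in wild type, and at 0.847 ± 0.104 in PANC-1 K17 and 0.330 ± 0.266 with the empty vector (SD, n = 3 each). The squamous factor TP63 was at 387 ± 9.80 CPM in L3.6 knockout and 278 ± 11.0 in wild type, and KRT14 was near or at 0 in both lines. Whether replicates were separate cultures is not stated in the labels, so errors and p-values reflect only how far these libraries differ from each other, which may be technical.

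The counts read for members of the family differed between the 2 lines. In L3.6, ERBB2, EGFR and ERBB3 were each read with 332 to 2572 counts per library, and NRG1, TGFA and EREG were the ligands above 2 CPM in every library. PANC-1 libraries held ERBB2, EGFR and ERBB3 at a few to 30.1 CPM, and of the ligands only NRG1 and HBEGF were above 1 CPM. NRG1 and HBEGF were the genes of the 9 whose levels in PANC-1 reached or passed those in L3.6 in most libraries. Levels were scaled within each line, and a row of the tables may lack some of a gene's reads, so the order of the lines is a description.

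**Figure D1:**
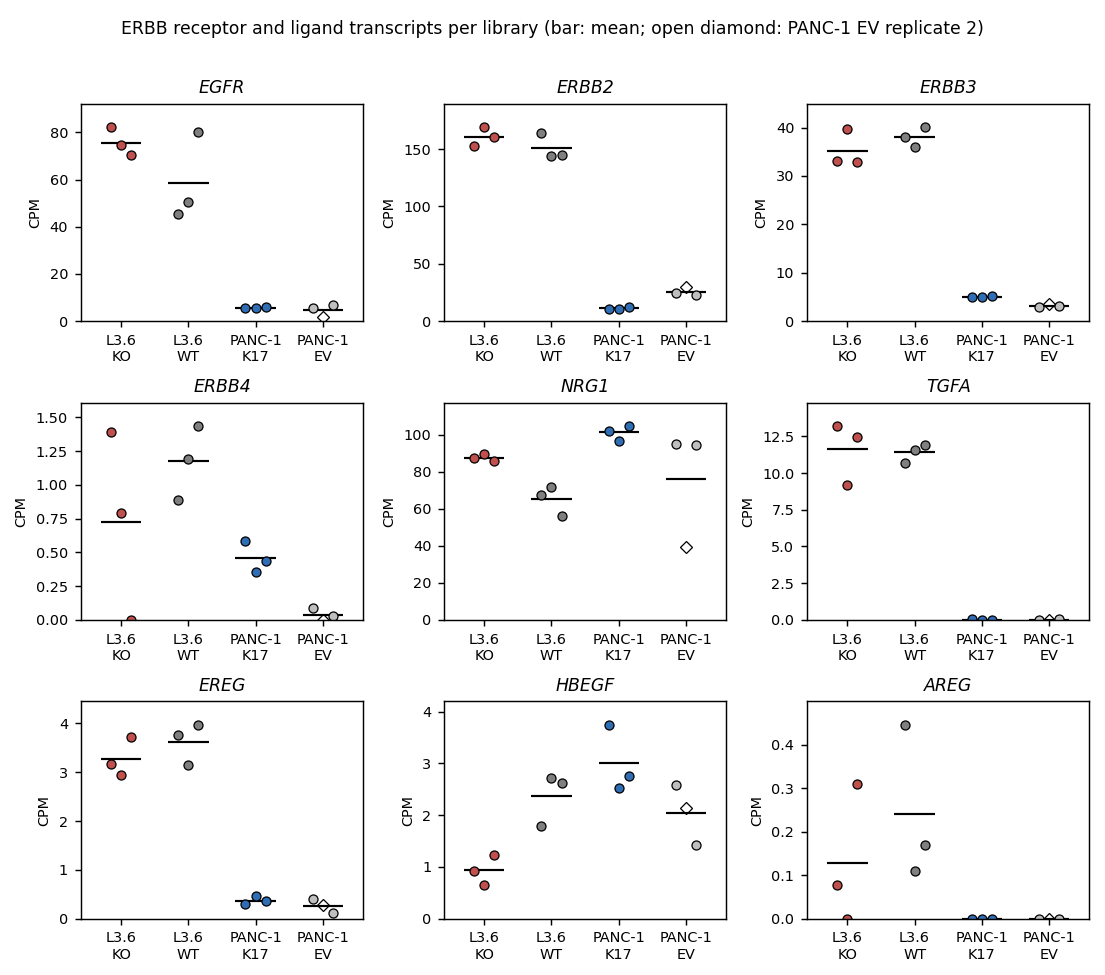
Each panel plots 1 gene, with CPM on a linear axis that starts at 0 and 1 point per library in the groups L3.6 K17 knockout (KO), L3.6 wild type (WT), PANC-1 K17 and PANC-1 empty vector (EV). Bars are means and the open diamond is PANC-1 empty vector replicate 2. ERBB2 lies lower in all 3 PANC-1 K17 libraries (10.8 to 12.1 CPM) than in any empty vector library (22.6 to 30.1 CPM), and NRG1 is higher in all 3 L3.6 knockout libraries (85.6 to 89.5 CPM) than in wild type (56.3 to 71.8 CPM).

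ERBB2 encodes the ligandless receptor also known as HER2 and lies on chromosome 17 of GRCh38 (39687914 to 39730426, plus strand, ENSG00000141736.13). Its start region is shared with PGAP3, a gene on the other strand whose product remodels the lipid anchor of surface proteins, and PGAP3 is described below beside ERBB2. The stretch just before the RefSeq start of ERBB2 (base 39688094 of GRCh38.p14) is shown because it lies between the paired starts. Capitals mark CCGGAAGT on either strand, a sequence that ETS transcription factors are known to bind.
ERBB2, chr17:39688064-39688093, plus strand: tccACTTCCGGagtaaCCGGAAGTtcctgt
The 8 letters occur 2 times, once on each strand and without overlap. Of 35116 RefSeq promoters, 1202 (3.42%) hold them on either strand in the 250 bases before the start, and 90 (0.256%) hold them 2 or more times. A match is a description of the letters and not a site. GENCODE 29 lists 22 ERBB2 transcripts, of which 3 start within 250 bases of this point and 19 start more than 5 kb downstream, and counts per gene do not tell which start was used.

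In PANC-1, ERBB2 was at 10.8, 10.8 and 12.1 CPM in K17 libraries, against 24.3, 30.1 and 22.6 CPM with the empty vector. The groups did not overlap, and the library that stood apart, empty vector replicate 2, held the highest value. The means were 11.2 ± 0.756 CPM with K17 and 25.7 ± 3.95 CPM with the empty vector, or 23.5 ± 1.18 CPM over the other two empty vector libraries. The log2 fold change was −1.19 (SE 0.162), and −1.07 (SE 0.0843) without replicate 2. ERBB2 was called lower in both fits across all genes (edgeR quasi-likelihood test, adjusted p under 0.05). Leaving out any 1 of the other 5 PANC-1 libraries lost the call, at log2 fold changes of −1.28 to −1.16. In L3.6, ERBB2 was at 153, 169 and 160.5 CPM in knockout libraries, against 164, 144 and 145 CPM in wild type. These groups overlapped through wild type replicate 1, and the log2 fold change was 0.09 (SE 0.068).

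ERBB3, the receptor for NRG1 with the weak kinase, lies on chromosome 12 (56076799 to 56103505, plus strand, ENSG00000065361.15). PANC-1 K17 libraries had 4.95, 4.99 and 5.15 CPM of ERBB3, against 2.87, 3.45 and 3.07 CPM with the empty vector. All 3 K17 libraries were above all 3 empty vector libraries, the opposite order to ERBB2. The means were 5.03 ± 0.109 CPM with K17 and 3.13 ± 0.295 CPM with the empty vector, and the log2 fold change was 0.68 (SE 0.151), which was not called with all libraries, and 0.76 (SE 0.117), which was called higher, without empty vector replicate 2. A clone-named gene, AC034102.2, shares exon bases with ERBB3 on the same strand. Its row had 1418, 723 and 1084 counts with K17 and 1737, 0 and 1138 with the empty vector. The ERBB3 row had fewer in most libraries, at 305, 298 and 319 counts with K17 and 202, 235 and 196 with the empty vector. Reads assigned between both rows could therefore move the ERBB3 count and the order of its groups, which was not tested. In L3.6 the AC034102.2 row was at 0 in all 6 libraries. There ERBB3 was at 33.2, 39.6 and 32.8 CPM in knockout libraries, against 38.1, 36.0 and 40.1 CPM in wild type, with overlapping groups and a log2 fold change of −0.11 (SE 0.101).

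EGFR, the receptor of the EGF-like ligands, lies on chromosome 7 (55019021 to 55211628, plus strand, ENSG00000146648.17). Knockout L3.6 libraries had 82.2, 74.5 and 70.3 CPM, against 45.2, 50.3 and 80.1 CPM in wild type. Wild type replicate 3 lay within the knockout range, so the groups overlapped. Means were 75.7 ± 6.05 CPM in knockout and 58.5 ± 18.8 CPM in wild type, with a log2 fold change of 0.37 (SE 0.205) that was not called. Without wild type replicate 3 it was 0.67 and called higher, so this 1 library decides the call. PANC-1 libraries had 5.76, 5.39 and 5.78 CPM with K17, against 5.54, 1.73 and 6.96 CPM with the empty vector, where the low value is replicate 2. The log2 fold change was 0.25 (SE 0.482) with that library and −0.15 (SE 0.129) without it, so its direction rests on replicate 2.

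ERBB4, a second NRG1 receptor with an active kinase, was the rarest receptor. It lies on chromosome 2 (211375717 to 212538841, minus strand, ENSG00000178568.14). L3.6 had 18, 11 and 0 counts in knockout libraries, against 14, 11 and 17 counts in wild type, and the groups overlapped. PANC-1 had 36, 21 and 27 counts with K17, against 6, 0 and 2 counts with the empty vector. All K17 libraries were above all empty vector libraries, at 0.457 ± 0.118 CPM with K17 and 0.0389 ± 0.0431 CPM with the empty vector. The log2 fold change was 3.48 (SE 0.766), not called, and 2.90 (SE 0.527), called higher, without replicate 2. With so few reads in the empty vector libraries its size depends on the small count that the fit adds.

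Set per kilobase of exon, ERBB2 had the highest level of the 4 receptors in all 12 libraries, although a row that lacks some of its gene's reads would place that gene too low. In PANC-1 it made up 51.0% ± 1.31 of the summed receptor level with K17, against 77.1% ± 7.15 with the empty vector, and 73.2% ± 3.18 without replicate 2 (SD, n = 3 each and n = 2). ERBB3 made up 26.1% ± 0.651 with K17, against 10.8% ± 0.493 with the empty vector. The ERBB2 to ERBB3 ratio of levels per kilobase was 1.91, 1.90 and 2.06 with K17, against 7.41, 7.65 and 6.44 with the empty vector. This gap was far wider than the spread within either group. The ERBB3 share and the ratio rest on the ERBB3 row, which reads assigned to AC034102.2 could move, and this was not tested. The summed receptor level was 2.13 ± 0.0958 CPM per kb with K17 and 3.22 ± 0.194 with the empty vector. In L3.6 the same sum was 25.6 ± 1.07 CPM per kb in knockout and 23.6 ± 1.47 in wild type, and ERBB2 made up 60.9% ± 1.91 in knockout and 62.1% ± 5.40 in wild type. The ERBB2 to ERBB3 ratio in L3.6 was 4.04, 3.74 and 4.28 in knockout libraries, against 3.77, 3.50 and 3.16 in wild type, with groups that overlapped by 1 library. ERBB2 per kilobase stood over EGFR by a factor of 2.26, 2.76 and 2.77 in L3.6 knockout, against 4.39, 3.47 and 2.19 in wild type. In PANC-1 that factor was 2.27, 2.43 and 2.54 with K17, against 5.32, 21.1 and 3.94 with the empty vector, where 21.1 is replicate 2.

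**Figure D2:**
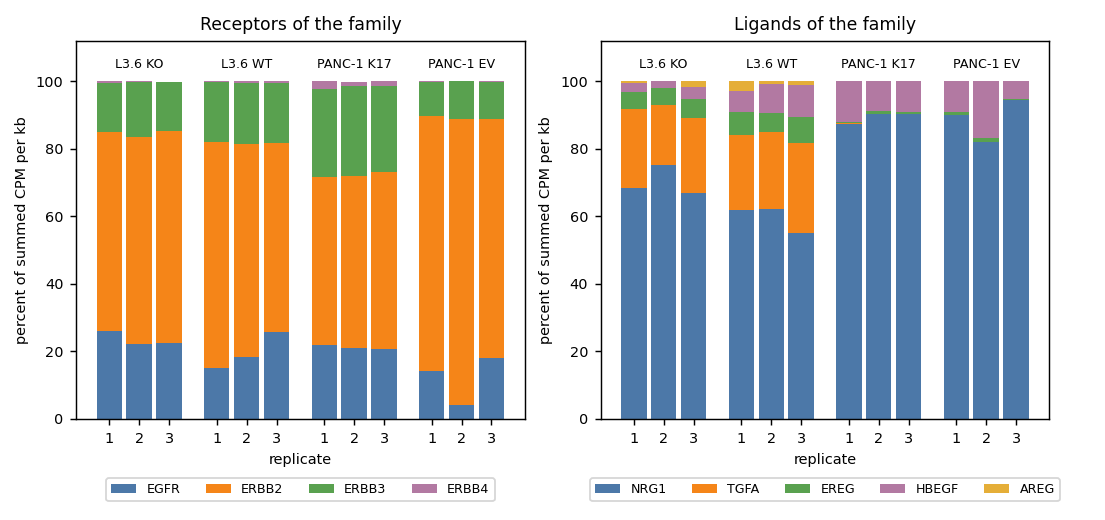
Stacked bars give, for each library, the percent that each gene contributes to the summed CPM per kb of the 4 receptors (left) or the 5 ligands (right), with replicates 1 to 3 of each group side by side. In PANC-1 the ERBB2 share of the receptors is 49.8% to 52.4% with K17 and 70.9% to 84.9% with the empty vector, and NRG1 makes up most of the ligand level in all 12 libraries.

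Among the ligands, NRG1 encodes neuregulin 1, which binds ERBB3 and ERBB4, and lies on chromosome 8 (31639386 to 32767959, plus strand, ENSG00000157168.18). It was at 87.3, 89.5 and 85.6 CPM in L3.6 knockout libraries, against 67.3, 71.8 and 56.3 CPM in wild type. Every knockout library was above every wild type library. Means were 87.5 ± 1.93 CPM in knockout and 65.1 ± 7.94 CPM in wild type, and the log2 fold change was 0.43 (SE 0.0887), called higher. The call was lost when any 1 knockout library was left out, with log2 fold changes of 0.42 to 0.44, and in a joint fit of both lines at 0.45. PANC-1 libraries had 102, 96.7 and 105 CPM with K17, against 94.8, 39.2 and 94.5 CPM with the empty vector. The low value is replicate 2. Without it the empty vector mean was 94.7 ± 0.217 CPM, beside 101 ± 4.07 CPM with K17, and the log2 fold change was 0.09 (SE 0.0408) in place of 0.41 (SE 0.344). Neither was called.

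HBEGF encodes heparin-binding EGF-like growth factor and lies on chromosome 5 (140332843 to 140346631, minus strand, ENSG00000113070.7). L3.6 knockout libraries had 12, 9 and 16 counts, against 28, 25 and 31 counts in wild type. All knockout libraries were below all wild type libraries, at 0.938 ± 0.296 CPM in knockout and 2.37 ± 0.512 CPM in wild type. The log2 fold change of −1.32 (SE 0.373) was not called, and at −1.49 (SE 0.387), without wild type replicate 1, it was called lower. In PANC-1, HBEGF was at 3.75, 2.53 and 2.76 CPM with K17, against 2.58, 2.13 and 1.43 CPM with the empty vector. The groups overlapped, with log2 fold changes of 0.56 (SE 0.283) and, without replicate 2, 0.58 (SE 0.299).

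TGFA, transforming growth factor alpha, lies on chromosome 2 (70447280 to 70554193, minus strand, ENSG00000163235.15). It was at 13.2, 9.21 and 12.5 CPM in L3.6 knockout libraries, against 10.7, 11.6 and 11.9 CPM in wild type, with a log2 fold change of 0.03 (SE 0.173). PANC-1 had 3, 0 and 0 counts of TGFA with K17, against 0, 0 and 3 with the empty vector, so it was at or under the 3 counts taken as the floor in every PANC-1 library. EREG, epiregulin, and AREG, amphiregulin, lie near each other on chromosome 4 (74365143 to 74388751, ENSG00000124882.3, and 74445134 to 74455009, ENSG00000109321.10, both plus strand). With EPGN and BTC they form a stretch of 4 ligand genes that spans 486 kb. EREG was at 3.17, 2.95 and 3.72 CPM in L3.6 knockout libraries, against 3.76, 3.14 and 3.98 CPM in wild type. The groups overlapped, and the log2 fold change was −0.15 (SE 0.241). PANC-1 libraries had 18, 28 and 22 counts of EREG with K17, against 28, 19 and 8 with the empty vector, with a log2 fold change of 0.47 (SE 0.455). AREG had 1, 0 and 4 counts in L3.6 knockout, against 7, 1 and 2 in wild type, and no count in any PANC-1 library, which allows up to 0.0426 to 0.0502 CPM per library for counting error only. EREG was thus the only gene of the pair with a level that could be compared in these 12 libraries.

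NRG1 made up 70.1% ± 4.54 of the summed ligand level per kilobase in L3.6 knockout and 59.7% ± 4.05 in wild type. HBEGF made up 2.80% ± 0.793 in knockout and 8.19% ± 1.82 in wild type, and TGFA made up 21.2% ± 3.08 in knockout and 24.0% ± 2.29 in wild type. In PANC-1, NRG1 made up 89.4% ± 1.70 with K17 and 88.8% ± 6.19 with the empty vector, and nearly all of the rest was HBEGF. The ligand mixture in PANC-1 thus overlapped between the groups, while the receptor mixture did not.

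Across both lines, 8 of the 9 genes passed the filter on low counts in L3.6 and 7 in PANC-1. AREG did not pass in either line, nor did TGFA in PANC-1. In L3.6, 1 of 8 was called (NRG1, higher), where 9.61% of all 13891 genes tested were called, 6.1% higher and 3.51% lower. In PANC-1, 1 of 7 was called (ERBB2, lower), beside 0.644% of 16295 genes, 0.583% higher and 0.0614% lower. Without empty vector replicate 2, 3 of 7 were called (ERBB3 and ERBB4 higher, ERBB2 lower), beside 20.7% of 16640 genes, 11.4% higher and 9.25% lower. Without L3.6 wild type replicate 1, 2 of 8 were called (NRG1 higher, HBEGF lower), beside 17.2% of 14463 genes, 10.6% higher and 6.61% lower. Because the genes were chosen with these contrasts known, nothing is read from these shares. The median log2 fold change of the genes tested was −0.04 in L3.6 and 0.47 in PANC-1, or 0.48 without replicate 2, beside −0.00541 to 0.0106 over all genes in the same fits. Summed epithelial markers (5 genes, none at 0) were at 1005 to 1055 CPM in PANC-1 with K17 and 926.7 to 1741 CPM with the empty vector. The groups overlapped only through empty vector replicate 2, and without it the empty vector range was 926.7 to 944 CPM, below all K17 libraries. The mesenchymal list was at 5209 to 5418 CPM with K17 and 5191 to 8326 CPM with the empty vector, where CDH2 was at 0. These groups overlapped also without replicate 2 (5191 to 5491 CPM). VIM made up most of this sum. ZEB1 was at 144 to 149 CPM with K17, against 171 to 173 CPM in empty vector libraries 1 and 3 and 55.0 CPM in replicate 2. Of 2 mesenchymal markers tested without replicate 2, 1 was called lower (log2 fold change −0.24) and 0 higher. The part of the epithelial and mesenchymal markers in the receptor values was not tested. Differences between the lines were not tested. In these bulk samples, fewer cells of a type and less RNA per cell cannot be told apart.

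**Figure D3:**
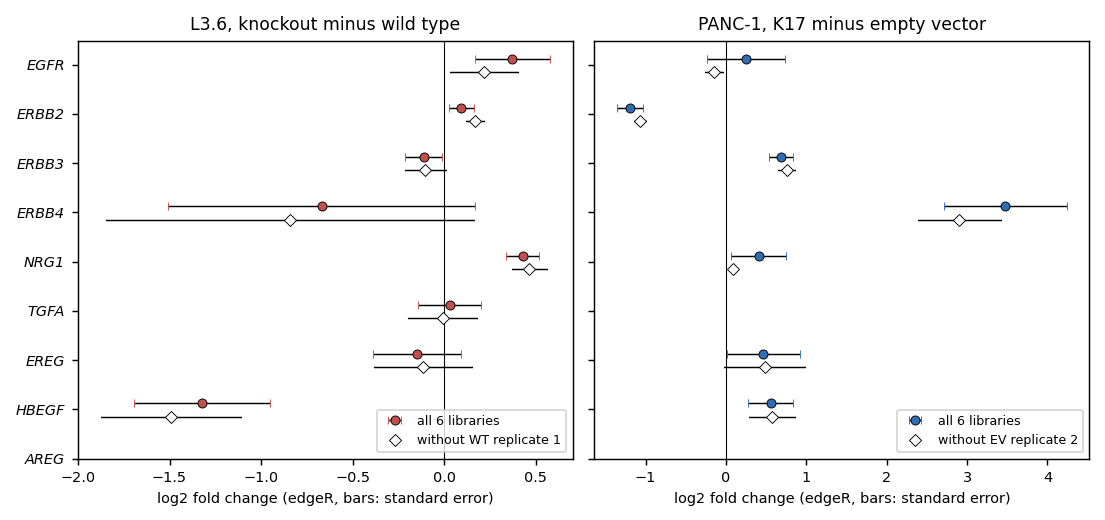
Log2 fold changes of the 9 genes with their standard errors from edgeR are given for L3.6 knockout minus wild type (left) and PANC-1 K17 minus empty vector (right), with filled circles for all 6 libraries and open diamonds without L3.6 wild type replicate 1 or PANC-1 empty vector replicate 2. The x axes differ in scale, and AREG, and TGFA in PANC-1, have no point because they did not pass the filter on low counts. NRG1 at 0.41 and EGFR at 0.25 in PANC-1 move to 0.09 and −0.15 without replicate 2, while ERBB2 stays near −1.1.

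Neighbours of ERBB2 on chromosome 17, which are often gained in copy together with it in tumours, were set beside it. PGAP3, at the shared start, had 71, 79 and 72 counts in PANC-1 K17 libraries, against 136, 241 and 166 with the empty vector. Its groups did not overlap, with a log2 fold change of −1.15 (SE 0.261), not called, and −0.90 (SE 0.193), called lower (edgeR adjusted p = 0.0174), without replicate 2. MIEN1, whose gene overlaps the end of ERBB2 on the other strand, went the other way without replicate 2, at 0.38 (SE 0.0594, edgeR adjusted p = 0.00477), and was at −0.23 (SE 0.403) with it. Both genes share exon bases with ERBB2 on the opposite strand, and the strand setting of the counting is not given in the sources used here, so their counts may hold reads of ERBB2. STARD3, a lipid transfer protein gene 50.8 kb before the ERBB2 start, was at −0.05 (SE 0.189), and GRB7, an adaptor gene 50.0 kb behind it, at 0.36 (SE 0.548) on 0.196 ± 0.0844 CPM with K17 and 0.151 ± 0.0805 CPM with the empty vector. TCAP was at −1.41 (SE 0.575) on under 0.5 CPM, PPP1R1B at −0.26 (SE 0.795) and IKZF3 at −0.80 (SE 1.17), none of them called, and PNMT did not pass the filter. STARD3, the neighbour with the most reads of those that do not overlap ERBB2, was at 9.37 ± 1.02 CPM with K17 and 9.68 ± 1.76 CPM with the empty vector, a difference within the spread of either group. In L3.6, 0 of the 6 neighbours that could be tested were called by edgeR, beside 9.61% of all genes. An unadjusted edgeR p under 0.05 was found for 2, a share that was not counted over all genes. Without wild type replicate 1 the lymphoid factor IKZF3 was called lower at −1.07 (SE 0.265).

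**Figure D4:**
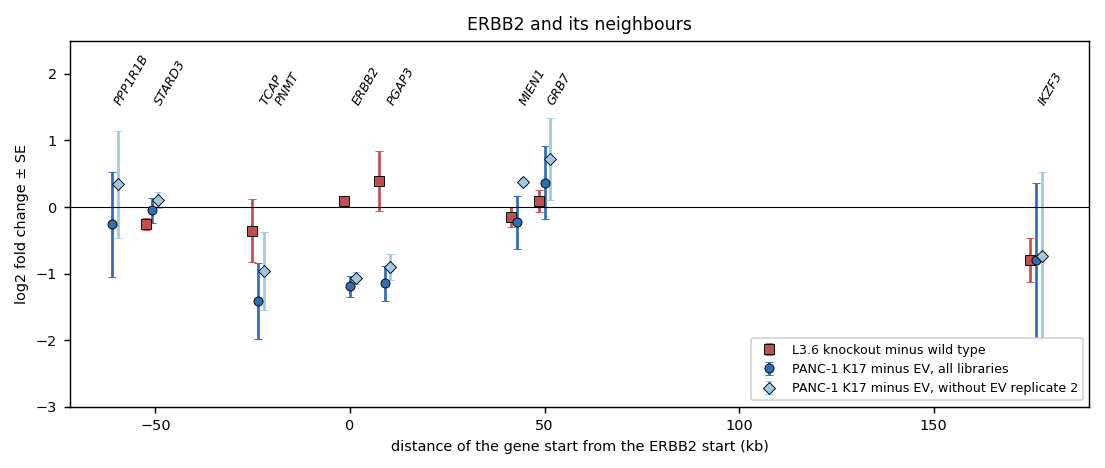
The log2 fold change of ERBB2 and of each neighbour (vertical axis, bars are standard errors) is plotted against the distance of its start from the ERBB2 start in kb, for L3.6 knockout minus wild type (squares), PANC-1 K17 minus empty vector (circles) and the same without empty vector replicate 2 (diamonds). PNMT has no point because it did not pass the filter. Starts are the outermost annotated ones, so PGAP3 is drawn at 8.9 kb. Of 11 PGAP3 transcripts, 7 start within 250 bases of the RefSeq start of ERBB2. ERBB2 and PGAP3 lie near −1 in PANC-1 in both fits, whereas STARD3 and MIEN1 lie between −0.23 and 0.38. TCAP, at −1.41 and −0.96 without replicate 2, and IKZF3, at −0.80 and −0.73, also lie below 0. GRB7 lies above 0 at 0.36 and 0.72, and PPP1R1B moves from −0.26 to 0.34. TCAP, IKZF3, GRB7 and PPP1R1B have wide standard errors and no call in PANC-1.

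The rest of the pathway was read from 81 genes in 7 lists, namely the neighbours above, other ligands of the family, proteins that release ligands, adaptors and kinases of the RAS-ERK cascade, negative regulators, ERK target genes, and receptor partners and chaperones. Of these, 78 had a row. In L3.6, 70 were tested, of which 9 were higher and 4 lower in knockout cells, 18.6% beside 9.61% of all genes, with a median log2 fold change of 0.06 beside −0.00541 over all genes. Upper-quartile factors gave 7 higher and 5 lower, and the 13 calls became 7 without knockout replicate 2, 8 without knockout replicate 3 and 19 without wild type replicate 1. In PANC-1, 67 were tested and edgeR called 0 of them, while DESeq2 called 1 and limma-voom 0. An unadjusted edgeR p under 0.05 was found for 8, and the share of all genes with such a p was not counted. Without empty vector replicate 2, 68 were tested, of which 11 were higher and 10 lower with K17, 30.9% beside 20.7% of all genes, with a median of −0.03. All p-values in the next paragraphs are edgeR p-values adjusted over all genes tested, and PANC-1 calls are those without replicate 2. The lists were chosen with earlier results of these data known. Nothing is therefore read from the shares called in a list, and the calls are not independent evidence.

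Genes of ligand release were among those called in L3.6. Of 9 shedding genes tested, 3 rose in knockout cells and 6 were not called, so that 33.3% were called beside 9.61% of all genes. The sheddase gene ADAM17 lay lower, at 0.901 ± 0.312 CPM in knockout and 1.77 ± 0.0762 in wild type. Its groups did not overlap, but the log2 fold change of −0.96 (SE 0.375) was not called. ADAM19, a metalloprotease known to cut neuregulins, rose to 34.4 ± 4.26 CPM in knockout, against 13.1 ± 1.93 in wild type (log2 fold change 1.39, SE 0.146, adjusted p = 0.001). ADAM12, which cuts HBEGF, rose to 37.4 ± 2.86 CPM in knockout, against 17.6 ± 1.27 in wild type (1.09, SE 0.106, adjusted p = 0.000731). FURIN, the proprotein convertase that activates ADAM precursors, rose to 128 ± 1.59 CPM in knockout, against 67.3 ± 1.79 in wild type (0.93, SE 0.0515, adjusted p = 5.83e-05). All 3 stayed called under all 14 alternatives tried. The same knockout libraries were higher in TP63, whose values are given above, and in the mesenchymal filament gene VIM, at 2071 ± 96.1 CPM in knockout and 1346 ± 127 in wild type. Summed over all markers with a row, the squamous list (3 genes) was at 395 to 414 CPM in knockout and 278 to 301 CPM in wild type, and the mesenchymal list (3 genes) at 2005 to 2204 CPM in knockout and 1258 to 1508 CPM in wild type. Nearly all of the mesenchymal sum was VIM, so it does not describe the list. ZEB1 was lower on average, at 23.1 CPM in knockout and 26.1 CPM in wild type (log2 fold change −0.17, SE 0.116). CDH2 had a log2 fold change of 2.71 (SE 1.69). For both genes the groups overlapped and there was no call. The epithelial list (5 genes) was at 3681 to 4009 CPM in knockout and 3138 to 3512 CPM in wild type. The endothelial list (4 genes) was at 3.48 to 4.03 CPM in knockout and 8.78 to 12.9 CPM in wild type. Most of that sum was PECAM1, called lower, at 3.62 ± 0.185 CPM in knockout and 9.57 ± 1.71 in wild type. VWF, CDH5 and KDR did not pass the filter on low counts. No gene of these lists was at 0 counts over a whole L3.6 group, and their part in the NRG1, HBEGF and shedding gene values was not tested. In PANC-1, 2 of 9 shedding genes rose and 1 fell with K17, 33.3% beside 20.7% of all genes. RHBDF2, which encodes the partner iRhom2 of the sheddase ADAM17, was higher at 19.5 ± 0.865 CPM with K17, against 14.4 ± 0.168 in the empty vector libraries 1 and 3 (0.43, SE 0.0711, adjusted p = 0.00605). FURIN was higher by 0.18 (SE 0.0527, adjusted p = 0.0494), and ADAM10 was lower by a log2 fold change of −0.26 (SE 0.0528, adjusted p = 0.0174). ADAM10 was at 4.68 CPM in empty vector replicate 2, against 266 to 274 CPM in the others, and with that library its log2 fold change was 0.32.

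Receptor partners at the membrane moved in both directions. Of 8 tested in L3.6, 2 rose and 2 fell in knockout cells, 50% beside 9.61% of all genes. CAV1, the coat protein of caveolae, where EGFR can reside, rose to 241 ± 9.66 CPM in knockout, against 95.5 ± 5.97 in wild type (1.34, SE 0.0620, adjusted p = 2.27e-05). CD9, a tetraspanin that associates with the HBEGF precursor, rose by 0.59 (SE 0.139, adjusted p = 0.0345), and lost the call in 6 of 14 alternatives, among them the fits without any 1 knockout library or without wild type replicate 3. MUC4, a membrane mucin that binds ERBB2, fell to 5 counts in all over the knockout libraries, against 111 in wild type (−4.58, SE 0.857, adjusted p = 0.0154). Wild type libraries ranged from 0.828 to 6.01 CPM of MUC4, and 6 of 13 alternatives lost the call, among them the fits without any 1 knockout library. MUC1, a mucin that binds EGFR, fell to 14.1 ± 2.65 CPM in knockout, against 31.3 ± 12.8 in wild type (−1.15, SE 0.284, adjusted p = 0.0468), and 9 of 14 alternatives lost the call, among them the fits without any 1 library other than wild type replicate 1. In PANC-1, of 7 tested, CD9 (0.62, SE 0.0991, adjusted p = 0.0075) and MUC1 (0.50, SE 0.0635, adjusted p = 0.00196) were higher with K17. CAV1 (−0.42, SE 0.0620, adjusted p = 0.00628) and the chaperone gene HSP90AA1, whose product stabilises ERBB2 protein (−0.22, SE 0.0325, adjusted p = 0.00351), were lower, and MUC4 had no count. These calls made up 57.1% of the 7 tested in PANC-1, beside 20.7% of all genes. With replicate 2 none of these PANC-1 calls held.

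Of the adaptors and kinases of the RAS-ERK cascade, 2 of 15 rose and none fell in L3.6 knockout cells, 13.3% beside 9.61% of all genes. These were the adaptor SHC1 (0.28, SE 0.0587, adjusted p = 0.0212) and the kinase MAP2K1 (0.26, SE 0.0614, adjusted p = 0.0352). Of 14 alternatives, SHC1 lost its call in 6 and MAP2K1 in 8, including the fits without knockout replicate 2 or 3 and without wild type replicate 2 or 3, and for MAP2K1 also without knockout replicate 1. In PANC-1, 2 of 16 were higher and 4 lower with K17, 37.5% beside 20.7% of all genes. SHC1 (−0.20, SE 0.0288, adjusted p = 0.00311) and the adaptor GRB2 (−0.19, SE 0.0307, adjusted p = 0.00541) were lower, whereas MAP2K2 was higher (0.23, SE 0.0449, adjusted p = 0.0119). The sizes of these changes were under 0.3 on the log2 scale.

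Negative regulators gave 1 rise and 2 falls among 16 tested in L3.6, 18.8% beside 9.61% of all genes. NF1, which switches RAS off, fell to 487 ± 11.2 CPM in knockout, against 672 ± 19.4 in wild type (−0.46, SE 0.0460, adjusted p = 0.000788). SPRY4, a feedback inhibitor of the cascade, fell to 56.5 ± 0.456 CPM in knockout, against 73.6 ± 1.76 in wild type (−0.38, SE 0.0573, adjusted p = 0.00511). LRIG1, which promotes breakdown of ERBB receptors, rose to 135 ± 4.53 CPM in knockout, against 103 ± 4.03 in wild type (0.39, SE 0.0547, adjusted p = 0.00378). In PANC-1, 1 of 16 was higher and 1 lower with K17, 12.5% beside 20.7% of all genes. ERRFI1, a feedback inhibitor that binds the EGFR and ERBB2 kinases, was lower at 31.5 ± 1.60 CPM with K17, against 51.5 ± 1.22 in the empty vector libraries 1 and 3 (−0.71, SE 0.0560, adjusted p = 0.000275). Empty vector replicate 2 was at 4.89 CPM of ERRFI1, below all K17 libraries. SPRY4 was higher with K17 (0.33, SE 0.0387, adjusted p = 0.00131).

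Among 12 ERK target genes tested in L3.6, CCND1, the cyclin that drives entry into the cell cycle, rose in knockout cells (0.21, SE 0.0535, adjusted p = 0.0486), and none fell, so that 8.33% were called beside 9.61% of all genes. The CCND1 call was lost in 9 of 14 alternatives, among them the fits without any 1 library other than wild type replicate 1. In PANC-1, 3 of 11 were higher and 1 lower with K17, 36.4% beside 20.7% of all genes. The immediate early factor JUN (0.32, SE 0.0450, adjusted p = 0.00323) and PHLDA1 (0.19, SE 0.0276, adjusted p = 0.00368) were higher, and the AP-1 factor FOSL1 was lower (−0.27, SE 0.0493, adjusted p = 0.00961). The remaining ligands gave no call in either line. NRG4, an ERBB4 ligand and the most abundant of them in L3.6, was at 30.4 ± 3.50 CPM in knockout and 31.2 ± 1.89 in wild type. NRG2, the most abundant in PANC-1, was at 4.85 ± 0.583 CPM with K17 and 4.89 ± 0.695 with the empty vector.

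**Figure D5:**
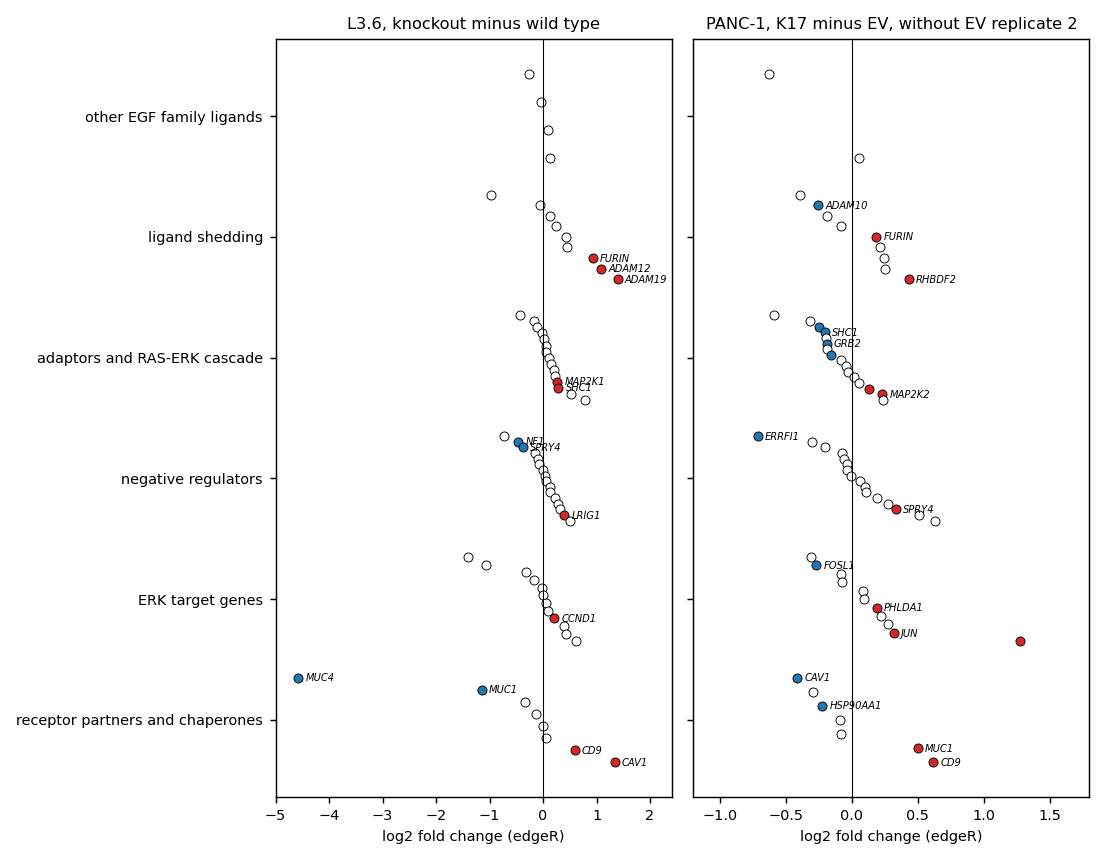
Each point is 1 tested gene of a pathway list, placed by its log2 fold change from edgeR (horizontal axis, different scales) and spread within its list in order of fold change. Red points were called higher, blue points lower, open points were not called, and names are given to most called genes that the naming rule takes. The left panel is L3.6 knockout minus wild type, where MUC4 lies at −4.58, and the right panel is PANC-1 K17 minus empty vector without replicate 2, where CAV1 is at −0.42 and CD9 at 0.62.

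As a description, genes were ranked by how closely they followed each member over the 11 human libraries without PANC-1 empty vector replicate 2, after each gene was centred within its line. The measure was Pearson's r of log2 CPM, the libraries share their group differences and depth, and the leading genes are picked from all genes that passed the filters. For ERBB2 the leading genes were FAM13B (r = 0.989), RALGPS2 (0.982) and ADD3 (0.982). ERBB3 was followed by TM7SF2 (0.978), RETREG1 (0.978) and ARMC9 (0.976). The leading genes for NRG1 were ZNF449 (0.962), OGFOD1 (0.962) and MID2 (0.961), and those for HBEGF were TRIM25 (0.947), TTLL5 (0.946) and PRR5 (0.937). Among the members themselves, ERBB2 and ERBB3 ran in opposite directions (r = −0.915), as did ERBB2 and ERBB4 (r = −0.708), whereas ERBB3 and ERBB4 ran together (r = 0.739). These restate the PANC-1 values above. NRG1 and HBEGF ran in opposite directions over the 11 libraries (r = −0.643), as did their fold changes in L3.6 given above. In PANC-1 without replicate 2 both log2 fold changes were positive, at 0.09 for NRG1 and 0.58 for HBEGF.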

How the data were processed

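The deposited values are whole-number read counts per gene. Per the submitters' processing notes, kallisto 0.46.2, STAR 2.7.3a and bcl2fastq 1.8.4 were used, but which tool made the counts, and with which settings, is not given in the sources used here. Libraries were made from total RNA with a TruSeq RNA kit, per the labels' protocols. Gene names, lengths and GRCh38 coordinates came from GENCODE 29, which holds 34474 of the 34505 identifiers. Some rows may lack reads of their gene, so levels compare between genes and lines only with caution.

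Counts were analysed in R 4.3.3 with edgeR 4.0.16, each line alone, with TMM factors, filterByExpr, robust quasi-likelihood fits and Benjamini-Hochberg adjustment over all genes kept at a threshold of 0.05. CPM uses TMM-scaled library sizes, and CPM per kb divides by summed exon length. Fold changes are knockout minus wild type and K17 minus empty vector. Values of 3 counts or fewer are at the floor, which covers counting error only. Replicates in every group differed by more than sampling noise (chi-square per degree of freedom of 5.10 to 739.8). Other settings tried were leaving out each library, a block for the replicate number, a joint fit of all 4 human groups, DESeq2 1.42.0, limma-voom (limma 3.58.1), RLE or upper-quartile scaling, and a filter of 1 CPM in 3 libraries or none. The script was tested on simulated counts.

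The members, gene lists and tests were chosen with earlier results of these data known. Of 119 listed genes, 4 had no row and were not analysed here. Genes were named by rule, namely the 9 members, KRT17, all ERBB2 neighbours, and of each list at most 4 called genes with the largest fold change and a mean of at least 1 CPM, or the most abundant gene where none was called. One gene that the rule takes is not reported here. Genes named for a like pattern had a mean of at least 5 CPM, and ADAM17 was named outside these rules. The promoter stretch is from RefSeq on GRCh38.p14. The mouse libraries, 6 in all, were not used.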

Additional observations from a re-analysis of the deposited data

Results flagged for a closer look

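In 7 genes, every library with more K17 lay on 1 side of every library with less K17 in PANC-1 and on the other side in L3.6, so that all K17 libraries were higher in PANC-1 and all knockout libraries were higher in L3.6. The difference between the lines was not tested in any of these 7 genes. They belong to the 9 members and the 78 pathway genes with a row, among which groups without overlap were common. Of the pathway genes, 31 had such groups for knockout against wild type and 29 for K17 against empty vector. Of the members, 2 and 4 did. The share of all genes with the pattern, or with groups without overlap in either comparison, was not counted. The number 7 and these counts are therefore a description only. The values below add the PANC-1 log2 fold change (K17 minus empty vector) to that of L3.6 (knockout minus wild type).

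NRG1 gave 0.84, from 0.41 in PANC-1 and 0.43 in L3.6, but the PANC-1 value is 0.09 without empty vector replicate 2. The shedding genes ADAM19 and ADAM12 gave 1.75 and 1.59, of which 0.35 and 0.50 came from PANC-1. The receptor regulator LRIG3 gave 0.80 and the transcription factor JUN 0.86. MAP2K1 gave 0.51 and CCND1 0.50. Without empty vector replicate 2 the PANC-1 means lay closer in most of these genes too. The empty vector mean moved from 9.36 to 11.8 CPM for LRIG3 (13.5 with K17) and from 515 to 594 for CCND1 (632). It moved from 77.1 to 83.5 for MAP2K1 (91.8), from 1.18 to 1.41 for ADAM12 (1.67) and from 13.3 to 14.6 for ADAM19 (17.0). For JUN the log2 fold change was 0.32 in place of 0.24. In PANC-1 none of these 7 genes was called with all libraries, and JUN and MAP2K1 were called higher without replicate 2.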

How the results depend on the processing

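ERBB2 kept a negative log2 fold change in PANC-1 under all 14 alternatives (−1.28 to −1.07) and its call in 6, and ERBB3 (0.60 to 0.76) and ERBB4 (2.90 to 4.74) kept theirs positive with calls in 2 each, DESeq2 and the fit without empty vector replicate 2. NRG1 in L3.6 stayed positive in 14 (0.33 to 0.50) and called in 10, HBEGF stayed negative in 14 (−1.58 to −1.11) and was called in 1, and EGFR stayed positive in 14 (0.22 to 0.67) and was called in 1. In L3.6 the 1335 genes called became 204 with 4 groups in 1 fit and 574 to 2493 with each library left out, and the 13 pathway genes became 4 and 7 to 19. Upper-quartile factors split the L3.6 calls into 706 higher and 639 lower, against 847 and 488. In PANC-1 the 105 genes called became 595 with DESeq2, 363 with 4 groups in 1 fit and 0 to 3442 with each library left out (3442 without empty vector replicate 2), and the 0 pathway genes became 1 with DESeq2 and 0 to 21. Without that library ADAM10, MIEN1 and MAP2K2 changed sign and were called, EGFR, NRG2, PTPN11 and CBL changed sign with no call in either fit, and the cause was not tested. With each library left out, the log2 fold change ran from −0.26 to 0.73 for ADAM10 (1.69 with limma-voom and 1.195 with the replicate block), from −0.47 to 0.38 for MIEN1 and from −0.39 to 0.23 for MAP2K2. The main fits treated the samples as unpaired. Deviations of libraries with the same replicate number correlated at −0.121 to 0.0863. In PANC-1 these values cannot decide whether the numbers pair the samples, because empty vector replicate 2 stood far apart. It was at 135.1 on the first principal component, against −22 and −26.2 for empty vector replicates 1 and 3. With the replicate block, L3.6 gave 665 genes and 8 pathway genes and PANC-1 gave 0 genes and 0 pathway genes. With 9485257 to 15476629 counts per L3.6 library, AREG, ERBB4 and HBEGF rest on 31 counts or fewer each.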
